A study of Mus musculus with 4 samples.

Results

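DNA replication in mammalian cells is prepared in G1, when the origin recognition complex, Cdc6 and Cdt1 load the Mcm helicase onto origins, and is started at the G1/S transition by cyclin E and Dbf4-dependent kinase activity. Cdc45 and the GINS complex then turn the loaded helicase into an active one, and polymerases, the Pcna clamp with its loader, and deoxynucleotide supply carry the fork forward. Many of these genes are known targets of E2F transcription factors, which the retinoblastoma protein holds in check. The data described here are the RNA signals of 41 such genes, chosen by name as G1/S and DNA replication genes, out of 19938 genes named on the arrays. For each gene the probe set with the highest mean and a single gene symbol was used. All 41 had such a probe set and passed the filter on dim signals.

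Smarcb1, a tumour suppressor, is part of the chromatin remodeller SWI/SNF. The study used 2 mouse tumour lines, 167 and 365, from soft tissue tumours, labelled MRT and deficient in Smarcb1, in p53-null mice that were heterozygous for Smarcb1, on a C57BL6/SV129J background. Cells of each line received either a Smarcb1-expressing pMIG retroviral vector or the empty one, and total RNA was taken 3 days after infection. Each line and vector was measured on 1 array, 4 in all, and every group lacks p53. The early time was meant to favour direct targets of Smarcb1. Each line stems from 1 mouse, and the labels name no repeat cultures, so the only replication is that of 2 lines and the number of arrays limits the precision.

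As a check of the labels, the log2 signal of Smarcb1 was 4.61 with empty vector and 7.83 with Smarcb1 in line 167, against 6.01 and 9.61 in line 365, a rise with limma adjusted p = 0.0371. Of 5 mesenchymal markers, 4 reached log2 7 on at least 1 array in line 167, but only Vim, between 13.27 and 13.53 on all arrays, did so in line 365. There Col1a1 was at 6.38 and 6.41, Col1a2 at 5.75 on both arrays, Pdgfrb at 5.12 and 5.03 and Thy1 at 5.07 and 5.44. In line 167, beside the lower replication genes, 4 of these 5 markers were higher with Smarcb1. Col1a1 was higher by 2.65, Col1a2 by 1.74, Thy1 by 1.30 and Pdgfrb by 0.42, while Vim differed by -0.22. In line 365 the differences were 0.03 for Col1a1, 0.0017 for Col1a2, 0.37 for Thy1, -0.09 for Pdgfrb and 0.09 for Vim. None of the 5 passed the limma test over both lines (adjusted p between 0.369 and 0.83). The part of these markers in the response of the replication genes was not tested. None of the 6 leukocyte, 5 epithelial or 4 skeletal muscle markers measured reached that level. Of 5 endothelial markers, Cdh5 did so, at 9.06 and 8.29 in line 365 against 3.78 and 3.64 in line 167, while Pecam1 lay between 3.95 and 4.35. Kdr, Tek and Emcn lay between 3.19 and 4.80 on all arrays. The log2 of the summed signal of the 5 markers was 6.19 and 6.29 in line 167. It was 9.23 and 8.58 in line 365, where it came mostly from Cdh5. The part of Cdh5 in differences between the lines was not tested.

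With Smarcb1, signals of the replication genes were mostly lower, by small amounts. Differences are Smarcb1 minus empty vector on the log2 scale, and where a pair of them is given the first is that of line 167 and the second that of line 365. In line 167, 39 of the 41 genes were lower with Smarcb1 than with empty vector, where 57.2% of the 13956 tested genes were. In line 365 the count was 29, against 50.9% of tested genes. Lower in both lines were 27 genes (65.9%), against 34.1%, and 0 were higher in both, against 26.0%. The count of 27 was 25 after quantile normalization and 24 after cyclic loess. The median difference was -0.33 in line 167 and -0.22 in line 365, beside -0.06 and -0.0059 over all tested genes. On a linear scale the medians amount to 1.25-fold and 1.16-fold lower.

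Single members did not pass the test. In the limma fit with cell line and vector, adjusted by Benjamini-Hochberg over all tested genes, 0 of the 41 members were called, that is had an adjusted p below 0.05, with adjusted p between 0.260 and 0.957. The same fit called 0 lower genes (0%) and 9 higher genes (0.0645%) among all 13956. That total of 9 was 101, of them 10 lower, with a filter at the 50th percentile, 68, of them 4 lower, either after quantile normalization or with no filter, 28 after cyclic loess and 0 in a fit with vector alone, while members called stayed at 0 in each of these. At an unadjusted p below 0.05 the fit held 11 members lower and 0 higher, where 5.68% of tested genes were lower and 5.88% higher. No member differed 2-fold in either line, and the single-line differences ran from -0.83 to 0.21. In bulk RNA, fewer cells in S phase and less of these RNAs per cell cannot be told apart.

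The shares were also read among brighter genes. Among the 9390 tested genes with a mean at or above that of the dimmest member, 39.2% were lower in both lines, with medians of -0.10 and -0.02. A stricter description asked that both Smarcb1 arrays lie below both empty-vector arrays, which held for 18 of the 41 members and for 15.5% of tested genes. Lower by 1.2-fold or more in both lines were 11 members (Orc1, Orc2, Cdt1, Mcm3, Mcm5, Mcm10, Cdc45, Gins1, Pola2, Prim1 and Rfc4), against 8.18% of tested genes. After cyclic loess normalization this count was 6. The 1.2-fold cut was chosen after the data had been seen.

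The promoters of these genes were read as well. Their letters were not used in the choice by name, but many of these genes are known E2F targets. A high share of E2F-type letters could therefore follow from the gene list alone, whatever the arrays show. RefSeq promoters of assembly GRCm38.p6, running from 250 bases before to 50 bases after the annotated start, were matched by symbol for 33 of the 41 genes. E2F-type octamers, spelled TTTGGCGC, TTTCCCGC, TTTCGCGC or TTTGCCGC and searched on both strands, occurred in 13 of the 33 genes (39.4%), against 2.60% of all 27025 genes with an entry and 2.26% of the 32851 promoters in the table. In the 250 bases before the start alone the count was 8 (24.2%), against 2.16% of genes. The CCAAT box occurred in 20 of the 33 genes (60.6%), against 41.1% of all genes with an entry and 37.4% of promoters. The cell cycle element TTTGAA occurred in 8 (24.2%), against 20.2% of genes and 17.9% of promoters, a share near the background. The octamers can overlap each other, as in Mcm5 and Mcm6, and a match is a description of the letters and not a shown binding site.

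The following sequences belong to the 4 genes with a match and the most negative mean difference with Smarcb1, namely Orc1, E2f2, Cdt1 and Mcm5. Those of Rrm1 and Rfc5, whose mean differences were 0.10 and -0.03, are given beside them. The first 4 were picked by match and difference together, so they cannot show whether these go together. All are written 5′ to 3′ on the strand of the gene, and capitals mark the E2F-type octamers on either strand. For Orc1 and Mcm5 the 170 bases before the start are given, for E2f2 and Cdt1 a short window around a match that lies after the start, and for Rrm1 and Rfc5 the 100 bases before the start.
Orc1 (chr4:108579284-108579453, plus strand): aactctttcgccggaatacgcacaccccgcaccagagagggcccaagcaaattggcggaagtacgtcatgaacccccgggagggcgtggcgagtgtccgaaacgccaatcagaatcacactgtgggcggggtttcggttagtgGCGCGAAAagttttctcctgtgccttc
Mcm5 (chr8:75109339-75109508, plus strand): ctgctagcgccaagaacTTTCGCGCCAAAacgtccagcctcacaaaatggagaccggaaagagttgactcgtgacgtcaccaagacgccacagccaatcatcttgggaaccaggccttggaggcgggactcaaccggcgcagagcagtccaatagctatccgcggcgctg
Cdt1 (chr8:122568036-122568064, plus strand): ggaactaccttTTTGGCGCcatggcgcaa
E2f2 (chr4:136172302-136172323, plus strand): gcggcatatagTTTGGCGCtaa
Rrm1 (chr7:102441595-102441694, plus strand): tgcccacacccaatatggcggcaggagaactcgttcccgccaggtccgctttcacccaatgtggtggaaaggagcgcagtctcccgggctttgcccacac
Rfc5 (chr5:117389024-117389123, minus strand): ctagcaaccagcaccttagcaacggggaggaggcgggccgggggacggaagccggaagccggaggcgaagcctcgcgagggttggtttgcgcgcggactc
Counted from the start, the octamer of Orc1 begins at -27, on the reverse strand. Mcm5 has 2 overlapping octamers at -153 and -149, on opposite strands. Those of Cdt1 and E2f2 begin at bases 33 and 40 after the start. The windows of Rrm1 and Rfc5 hold none of these letters, which says nothing about the factor. They cover only the 100 bases before the start, and the octamers of Mcm5, Cdt1 and E2f2 lie outside such a window. Over the full stretch from 250 bases before to 50 bases after the start, Rrm1 and Rfc5 had no match either.

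Members with and without a match were both mostly lower with Smarcb1. Lower in both lines were 9 of 13 members with a match (69.2%) and 15 of 20 with an entry and no match (75.0%). Among all tested genes these shares were 43.1% and 34.3%. The median difference was -0.42 in line 167 and -0.22 in line 365 over the 13 genes with a match, and -0.22 and -0.27 over the 20 with an entry and no match. Among all tested genes, the 489 with a match had medians of -0.12 and -0.04, and the 10564 with an entry and no match had -0.06 and -0.0034. These medians carry no test.

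**Figure D1:**
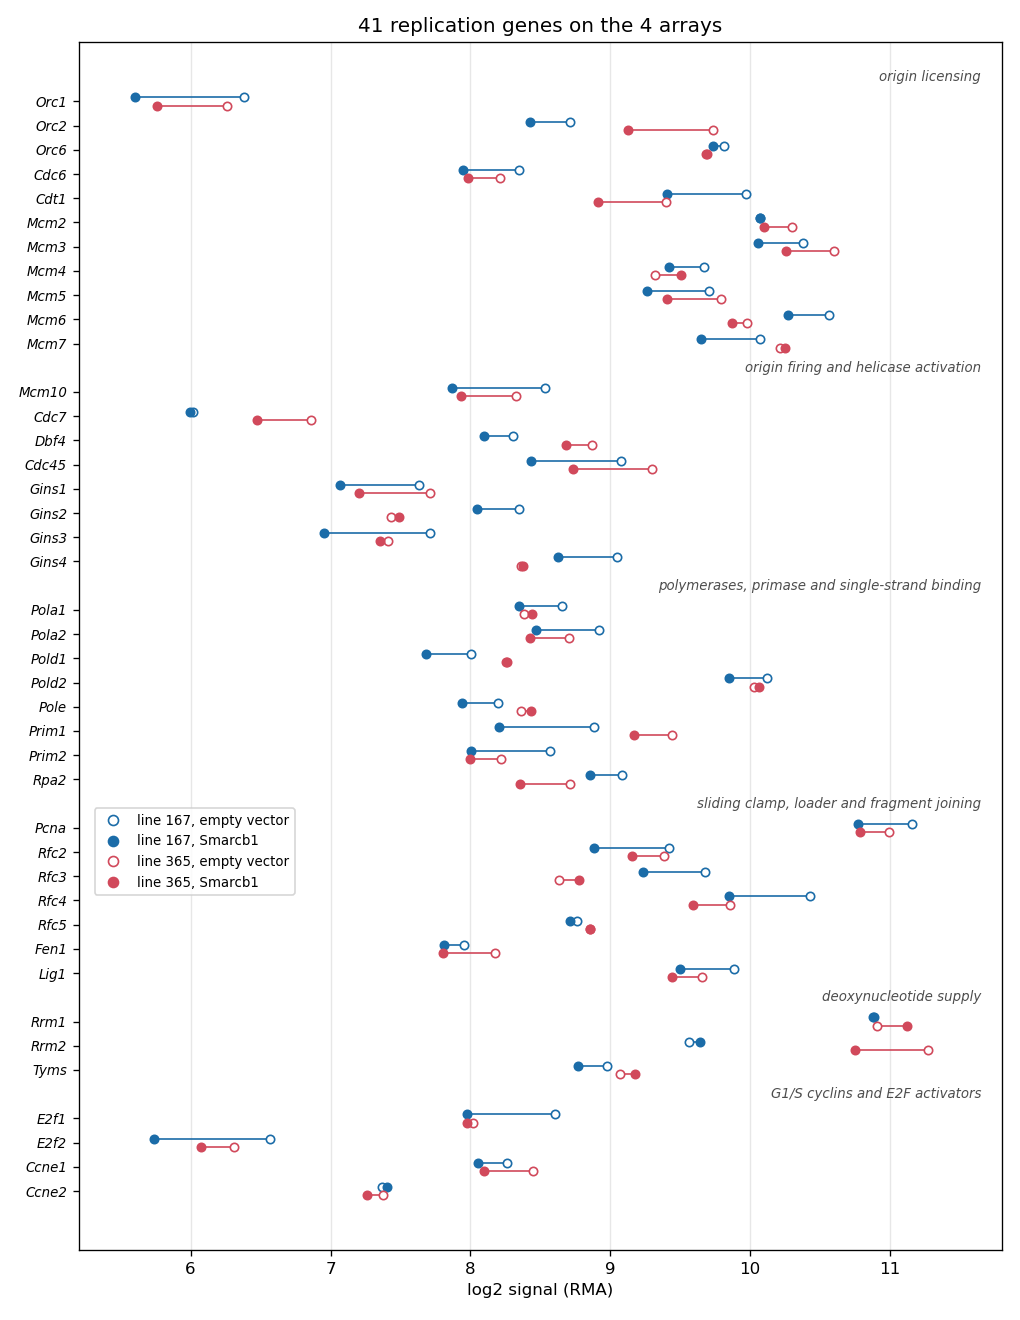
Log2 signal of the 41 replication genes, 1 row per gene, grouped by role, with open points for empty vector and filled points for Smarcb1 in line 167 (blue) and line 365 (red). Each point is 1 array and each line joins the 2 arrays of a cell line; in line 167 the filled point lies left of the open one for 39 genes, and levels of different genes come from different probes and are not comparable.

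Among the origin licensing genes, the most negative mean differences were those of Orc1, Cdt1, Orc2 and Mcm5. All 11 were lower in line 167 and 8 in line 365, with medians of -0.32 and -0.23. For this and the later counts by role, 57.2% of all tested genes were lower in line 167 and 50.9% in line 365. Orc1, the largest subunit of the origin recognition complex and itself regulated through the cell cycle, whose promoter holds the octamer printed above, had log2 signals of 6.38 with empty vector and 5.60 with Smarcb1 in line 167, and 6.26 and 5.76 in line 365. Both Smarcb1 arrays thus lay below both empty-vector arrays, and the mean difference was -0.64 ± 0.19 (SE moderated across genes by limma, n = 2 lines). This is 1.56-fold lower, at an adjusted p of 0.344 in limma. Cdt1, which brings the helicase to the origin, went from 9.97 to 9.41 (line 167) and from 9.40 to 8.91 (line 365). Its mean difference was -0.53 ± 0.13 (limma adjusted p = 0.280). The lines started apart, so the Smarcb1 array of line 167 (9.41) and the empty-vector array of line 365 (9.40) nearly coincided. Orc2 went from 8.71 to 8.43 and from 9.73 to 9.13, with line 365 higher under both vectors. Its differences were -0.28 and -0.61. Cdc6, the loading ATPase, had -0.40 and -0.23, and Orc6 was nearly level at -0.08 and 0.0091.

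The Mcm2 to Mcm7 subunits, which form one ring, had unequal differences. Mcm5 went from 9.70 to 9.26 (line 167) and from 9.79 to 9.41 (line 365). Its mean difference was -0.41 ± 0.13 (moderated SE), with limma adjusted p = 0.348, and the vectors did not overlap. Mcm3 differed by -0.32 and -0.34, nearly the same in both lines. Mcm6 went from 10.57 to 10.27 in line 167 but only from 9.97 to 9.87 in line 365. For Mcm7 the differences were -0.42 and 0.03, for Mcm4 -0.25 and 0.19, and for Mcm2 -0.0034 and -0.20. Line 167 thus held 6 of 6 subunits lower and line 365 held 4 of 6, with medians of -0.31 and -0.15.

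For the origin firing genes the median was -0.49 (line 167) and -0.28 (line 365). All 8 were lower in line 167 and 6 in line 365. Cdc45, the helicase cofactor that limits origin firing, had signals of 9.08 with empty vector and 8.43 with Smarcb1 in line 167, and 9.30 and 8.74 in line 365. Its mean difference of -0.60 ± 0.14 (moderated SE), or 1.52-fold lower on the linear scale, had the smallest p of the 41 members (unadjusted 0.00902, limma adjusted p = 0.260). Mcm10, a scaffold that helps activate the helicase, went from 8.53 to 7.87 and from 8.33 to 7.94. Its Smarcb1 arrays lay below both empty-vector arrays, and the mean difference was -0.53 ± 0.17 (limma adjusted p = 0.360). Cdc7, the catalytic subunit of the origin-firing kinase, was at 6.01 and 5.99 in line 167 and went from 6.86 to 6.48 in line 365. Cdc7 was higher in line 365 under both vectors. Its partner Dbf4 had differences of -0.21 and -0.18.

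The 4 GINS subunits form one complex at the protein level. Gins1 went from 7.63 to 7.07 (line 167) and from 7.71 to 7.20 (line 365), with a mean difference of -0.53 ± 0.17 (limma adjusted p = 0.373), and both Smarcb1 arrays lay below both empty-vector arrays. Gins3 went from 7.71 to 6.95 in line 167 and only from 7.41 to 7.35 in line 365, the widest gap between the responses of the lines among the 41 genes, at 0.70. Gins2 went from 8.35 to 8.05 (line 167) and from 7.43 to 7.49 (line 365). Gins4 had -0.42 and 0.01. Line 167 therefore held 4 of 4 lower, and line 365 held 2 of 4, of which Gins1 alone differed by more than 0.1.

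Polymerase, primase and single-strand binding genes were lower in 8 of 8 cases in line 167 and in 4 of 8 in line 365, with medians of -0.32 and -0.11. The count in line 365 was near the 50.9% of all tested genes lower there. The catalytic subunits Pola1 (-0.30 and 0.06), Pold1 (-0.33 and 0.0026) and Pole (-0.25 and 0.07) and the accessory subunit Pold2 (-0.28 and 0.04) were the 4 not lower in line 365. The primase genes were lower in both. Prim1, the catalytic primase subunit, went from 8.88 to 8.20 (line 167) and from 9.44 to 9.17 (line 365), and its mean difference was -0.47 ± 0.17 (limma adjusted p = 0.406). The vectors overlapped across lines because Prim1 was higher in line 365 under both. Prim2, its regulatory partner, had -0.57 and -0.22, and Pola2, an accessory subunit of polymerase alpha, had -0.45 and -0.28. Rpa2, which coats single-stranded DNA, had -0.23 and -0.35.

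Clamp, loader and fragment-joining genes were lower in line 167 in 7 of 7 cases and in line 365 in 6 of 7, with medians of -0.39 and -0.22. Pcna, the sliding clamp, went from 11.16 to 10.77 (line 167) and from 10.99 to 10.79 (line 365). Its mean difference was -0.30 ± 0.11 (limma adjusted p = 0.417), and both Smarcb1 arrays lay below both empty-vector arrays. Another probe set annotated to Pcna had 11.15 and 10.76 in line 167 and 10.98 and 10.78 in line 365. Which of these probe sets reads the Pcna locus, rather than a near-identical copy, could not be told, so they are no independent measurements and the Pcna value is uncertain to that extent. Rfc4, a clamp loader subunit, went from 10.43 to 9.85 and from 9.86 to 9.59, with a mean difference of -0.43 ± 0.14 (limma adjusted p = 0.372), and the Smarcb1 array of line 167 lay just under the empty-vector array of line 365. Rfc3 went the opposite way in the lines, from 9.67 to 9.23 (line 167) and from 8.64 to 8.78 (line 365). Among the other loader subunits, Rfc2 had -0.54 and -0.23 and Rfc5 was nearly level at -0.05 and -0.0031. The flap nuclease gene Fen1 had -0.14 and -0.37 and the ligase gene Lig1 -0.39 and -0.22, so both were lower in both lines.

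Of the 3 deoxynucleotide supply genes, 0 were lower in both lines. Rrm1, the large subunit of ribonucleotide reductase, was at 10.89 and 10.88 in line 167 and went from 10.91 to 11.12 in line 365. Its mean difference, 0.10 ± 0.11 (moderated SE; limma adjusted p = 0.769), was the 1 mean above 0 among the 41 genes in the deposited values. Means near 0 turned positive after quantile normalization and cyclic loess for Orc6, Mcm4, Rfc5 and Tyms, and after cyclic loess for Ccne2. Rrm2, the small subunit that limits the enzyme in S phase, was at 9.56 and 9.64 in line 167 and went from 11.27 to 10.75 in line 365. The thymidylate synthase gene Tyms had -0.21 and 0.10. Medians over the 3 were -0.01 and 0.10.

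The G1/S regulators among the members were lower in line 365 in 4 of 4 cases and in line 167 in 3 of 4. E2f1, an activator of the G1/S programme, went from 8.61 to 7.97 in line 167 and was at 8.02 and 7.97 in line 365. With Smarcb1 both lines were thus at 7.97. E2f2, a related activator, went from 6.57 to 5.74 (line 167) and from 6.31 to 6.07 (line 365), and its mean difference was -0.54 ± 0.23 (limma adjusted p = 0.473). The Smarcb1 arrays of E2f2 lay below both empty-vector arrays. Of the cyclin E genes, which activate the G1/S kinase, Ccne1 had -0.21 and -0.35 and Ccne2 0.03 and -0.12.

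**Figure D2:**
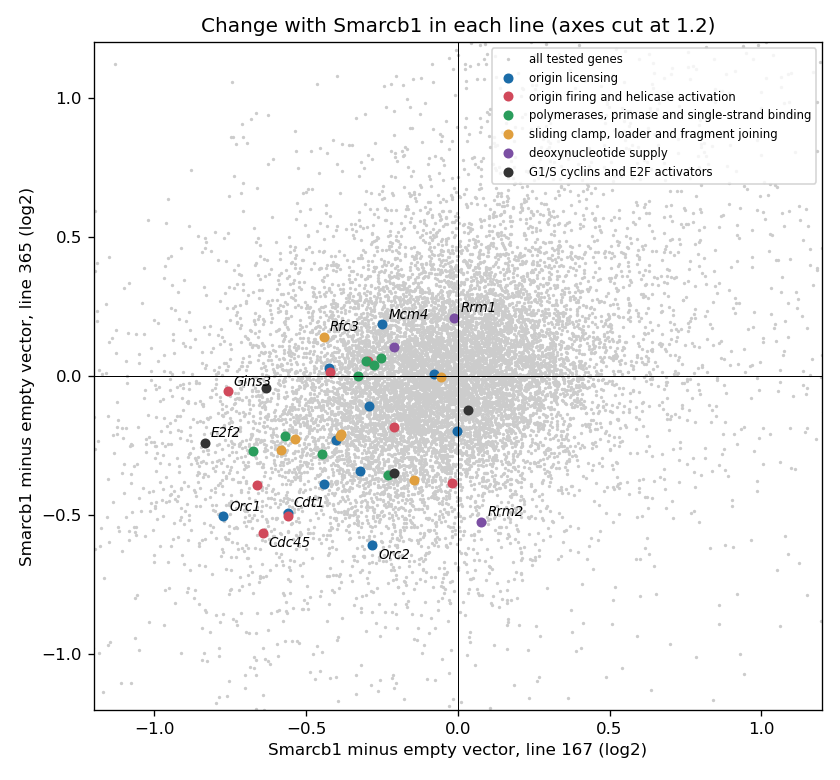
Difference of Smarcb1 minus empty vector (log2) in line 167 on the horizontal axis and in line 365 on the vertical axis, for all tested genes (grey) and for the 41 replication genes coloured by role, with axes cut at 1.2 on either side. The lower left field, lower in both lines, holds 27 of the 41 genes and the upper right field holds 0, whereas 12 genes lie above 0 in line 365.

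The lines differed in size of response as follows. The difference was more negative in line 167 than in line 365 for 32 of the 41 genes, against 55.9% of tested genes. Signs were opposite in 14 members (39.8% of tested genes), and in 12 of these the lower value was that of line 167. With 1 array for each line and vector, no test of line against line can be made for the response.

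The other genes of the pathway, 79 in 6 lists, were read alongside. Of the 76 tested, 65 were lower in line 167, 51 in line 365 and 45 in both, with medians of -0.23 and -0.14. Over all tested genes the shares were 57.2%, 50.9% and 34.1%. In limma's test 0 passed over all genes, and 9 were lower and 0 higher at an unadjusted p below 0.05, against 5.68% and 5.88% of tested genes. Other licensing and initiation genes were lower in both lines in 12 of 13 cases. Orc3, a further origin recognition subunit, had -0.64 and -0.41 (limma adjusted p = 0.334), Donson -0.32 and -0.35 (adjusted p = 0.558) and the Mcm-binding protein gene Mcmbp -0.22 and -0.28 (adjusted p = 0.540). Other polymerase, clamp and loader genes were lower in both lines in 9 of 15 cases. There Dna2, a nuclease and helicase for long flaps, had -0.78 and -0.65 (limma adjusted p = 0.298), Rfc1 -0.38 and -0.36 (adjusted p = 0.422) and Pole2 -0.69 and -0.27 (adjusted p = 0.469).

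Fork protection and checkpoint genes were lower in both lines in 5 of 6 tested cases, among them the checkpoint kinase gene Chek1 at -0.58 and -0.45 (limma adjusted p = 0.299). Tipin had -0.45 and -0.24 (adjusted p = 0.445) and the phosphatase gene Cdc25a -0.24 and -0.32 (adjusted p = 0.560). Among other nucleotide supply genes, 7 of 11 were lower in both lines and 1, the dNTP hydrolase gene Samhd1, was higher in both (0.53 and 0.21). Shmt1, which feeds one-carbon units into thymidylate synthesis, went from 8.84 to 8.02 (line 167) and from 9.21 to 8.30 (line 365), so the vectors did not overlap. Its mean difference was -0.87 ± 0.15, or 1.83-fold lower (limma adjusted p = 0.161). Dctd had -0.30 and -0.79 (limma adjusted p = 0.357) and Umps -0.22 and -0.66 (adjusted p = 0.408). Chromatin replication genes were lower in both lines in 6 of 9 cases, with Hat1 at -0.49 and -0.20 (limma adjusted p = 0.395), Chaf1b at -0.73 and -0.10 (adjusted p = 0.518) and Chaf1a at -0.24 and -0.35 (adjusted p = 0.540).

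Of the other G1/S regulators, 6 of 22 (27.3%) were lower in both lines, and 4 had positive values in both. These shares are not above the 34.1% and 26.0% of all tested genes. Ccnd2, a D-type cyclin that drives G1 kinases, went from 12.55 to 11.98 (line 167) and from 12.58 to 11.76 (line 365). Its mean difference of -0.69 ± 0.10, or 1.61-fold lower, had limma adjusted p = 0.124, which became 0.0464 with a filter at the 50th percentile. Cdkn2c, an inhibitor of those kinases, had 0.20 and 1.09 (limma adjusted p = 0.451), and the retinoblastoma gene Rb1 had 0.33 and 0.44 (adjusted p = 0.512).

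Genes of the later G2/M phases, measured for comparison, were lower in 18 of 19 cases in line 167 and in 5 of 19 in line 365. The shares of all tested genes were 57.2% and 50.9%. The medians of the G2/M genes were -0.39 and 0.14. In line 167 both the replication genes and the G2/M genes were thus mostly lower, while in line 365 the replication genes were mostly lower and the G2/M genes mostly higher. This contrast was not tested. In limma's test 0 of the 19 passed, with 0 at an unadjusted p below 0.05, and Aurka, at -0.39 and -0.30, had the smallest (adjusted p = 0.441). Bub1 had -0.45 and -0.11 (adjusted p = 0.535) and Aurkb -0.56 and 0.02 (adjusted p = 0.620).

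**Figure D3:**
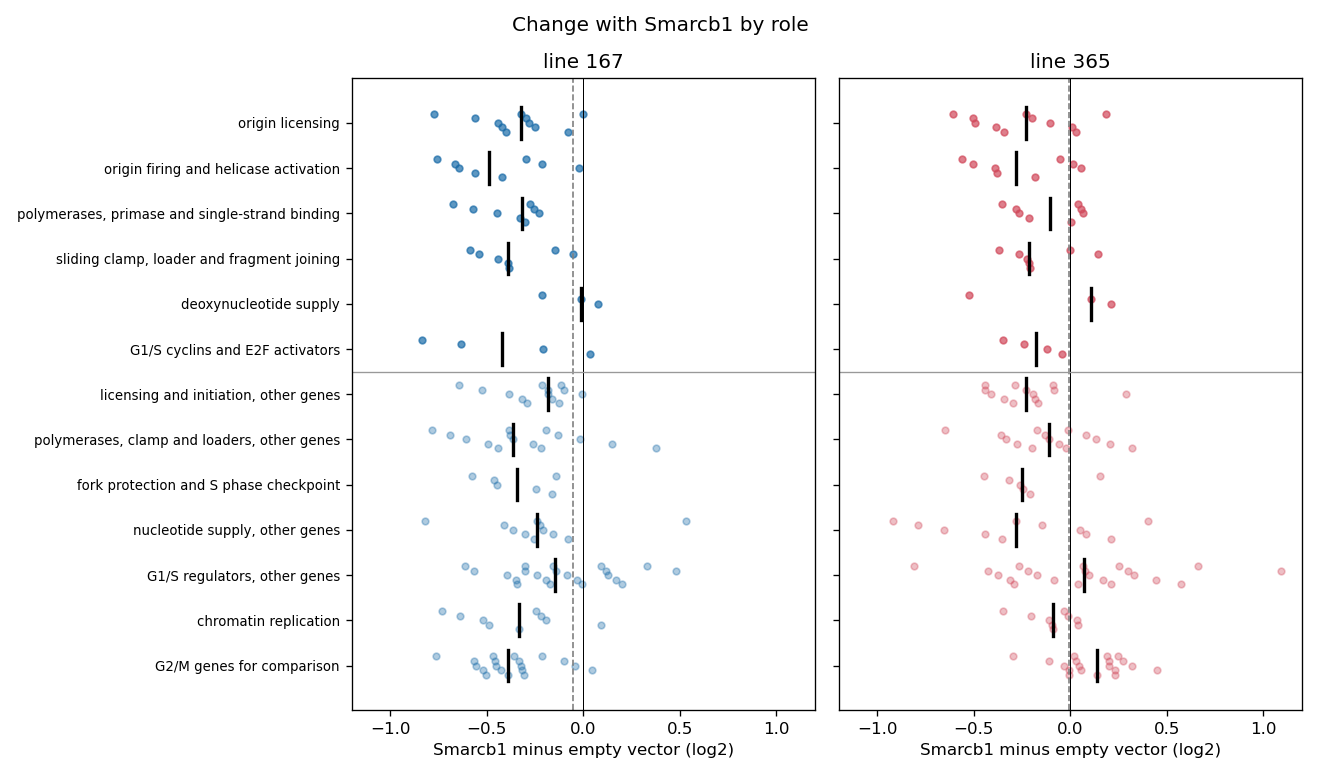
Difference of Smarcb1 minus empty vector (log2) for each gene (points) and the median (black bar) by role, in line 167 (left) and line 365 (right), with the 41 replication genes above the grey rule and the other lists below it. The dashed line is the median of all tested genes, -0.06 and -0.0059; the G2/M list has medians of -0.39 on the left and 0.14 on the right.

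The lines themselves were compared across both vectors. In the same limma fit, the term for the line called 2 of 41 members, both higher in line 365 (4.88%), against 10.9% of tested genes (5.31% higher in line 365 and 5.64% higher in line 167). Rrm2 was 2.66-fold higher in line 365, a log2 difference of 1.41 ± 0.18 (moderated SE) at an adjusted p of 0.0174 in limma. The gap was 1.71 with empty vector and 1.11 with Smarcb1. Orc2 was higher in line 365 by 0.86 ± 0.16, or 1.81-fold (limma adjusted p = 0.0392), a call that ended without the intensity trend (adjusted p = 0.0557). Prim1 (0.76, limma adjusted p = 0.0565) and Cdc7 (0.66, adjusted p = 0.110) were the next higher in line 365 and did not pass. Prim1 did pass with a filter at the 50th percentile (limma adjusted p = 0.0365), after quantile normalization (0.0408) and after cyclic loess (0.0427).

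Higher in line 167, without passing in the deposited values, were Rfc3 (line 365 minus line 167 of -0.75, limma adjusted p = 0.0761), Gins2 (-0.74, adjusted p = 0.0717), Cdt1 (-0.53, adjusted p = 0.0695) and Mcm6 (-0.50, adjusted p = 0.0703). Of these, Rfc3 (limma adjusted p = 0.0499) and Gins2 (0.0466) passed with a filter at the 50th percentile, and Mcm6 passed after quantile normalization (0.0435) and cyclic loess (0.0463). Which members differ between the lines thus depends on the processing. Over the 41 genes the median of line 365 minus line 167 was -0.10 on the empty-vector arrays and 0.09 on the Smarcb1 arrays. Gaps under 0.5 in size were found for 29 members with empty vector and 34 with Smarcb1. The median size of the gap was 0.23 and 0.24. Over all tested genes it was 0.33 and 0.28. The gap was smaller with Smarcb1 than with empty vector for 23 of the 41 members. This held for 8035 of the 13956 tested genes, so the share of members lay near the background. Each line comes from 1 mouse, so line and animal cannot be told apart. The arrays of a line differ in vector and are no repeat cultures. The p-values for the line thus do not measure the spread between cultures or animals.

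**Figure D4:**
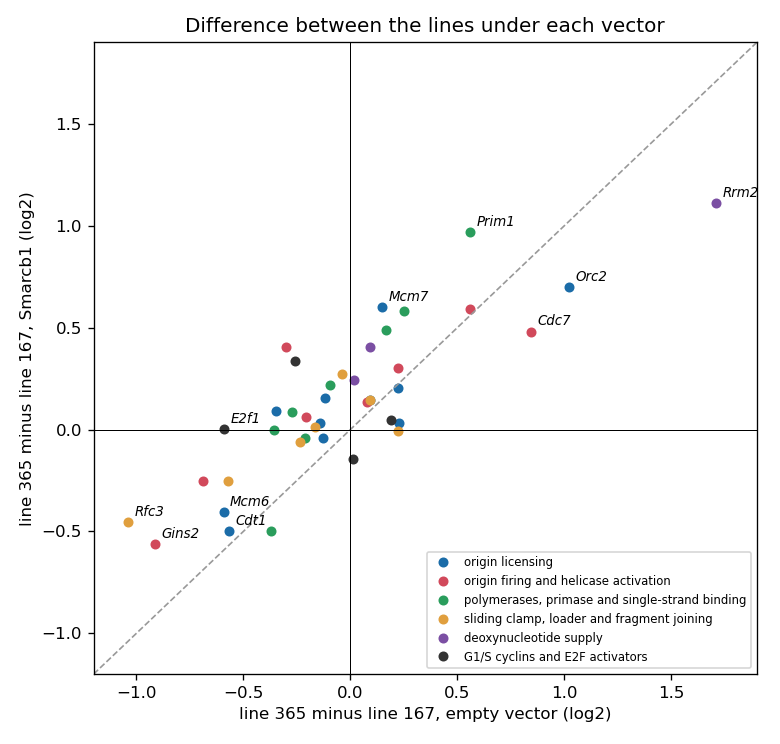
Line 365 minus line 167 (log2) on the empty-vector arrays (horizontal axis) and on the Smarcb1 arrays (vertical axis), 1 point per replication gene coloured by role, with a dashed line of equal values. Rrm2 lies farthest to the right at 1.71 and 1.11, Rfc3 farthest to the left at -1.04 and -0.45, and E2f1 moves from -0.59 to nearly 0.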

How the data were processed

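RNA of 4 arrays was analysed. Per the submitters' processing notes, the authors made the deposited log2 probe set signals with RMA in Affymetrix Expression Console, which corrects background, quantile-normalizes and summarises probes; versions, settings and genome build were looked for and not given in the sources used here. Quantile normalization hides a change of total RNA per cell. The platform annotation gave 1 symbol for 21789 of 35556 probe sets, several for 1621 and none for 12146. Entrez identifiers of 21698 were found in RefSeq (GRCm38.p6), and 0 symbols needed an update. Genes with a mean under the 30th percentile (log2 4.27) were left out, leaving 13956.

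The fit used limma 3.58.1 in R 4.3.3 (lmFit, eBayes with intensity trend) with terms for cell line and vector, two-sided p, Benjamini-Hochberg adjustment and a threshold of 0.05. The line pairs the arrays (correlation of deviations 0.770). The residual has 1 degree of freedom, plus 3.75 prior degrees, and SEs are moderated across genes. P-values measure the spread between these samples only. The fit was also run on simulated data with normal noise, variances from the fitted prior and the same change in both lines. Such data meet the assumptions of the model, so this run cannot show how the fit does where they fail. Promoters came from RefSeq with GRCm38.p6 coordinates, and promoters of 8 members were not used here.

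The members and lists were chosen with earlier results of these data known, so no list was tested. Fully described were the 10 largest mean differences of one sign, the 4 widest gaps between line responses, the 4 widest line differences each way, the 2 highest and 2 lowest signals, and in each further list the 3 smallest p. Alternatives were other filters, normalizations, moderation, probe set choice, no line term and leaving out a line. A few genes of the lists, among them Claspn, Cdkn1a and Ccnb1, were not analysed here.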

Additional observations from a re-analysis of the deposited data

Results flagged for a closer look

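In 3 replication genes the lines differed in sign by at least 0.1 in each line, which was not tested, since each line has 1 array per vector. The difference with Smarcb1 was -0.25 in line 167 and 0.19 in line 365 for Mcm4, a helicase subunit, a gap of 0.44. For Rfc3, a clamp loader subunit, it was -0.44 and 0.14, a gap of 0.58. For Tyms, the thymidylate synthase gene, it was -0.21 and 0.10, a gap of 0.32. The median of the G2/M list was -0.39 in line 167 and 0.14 in line 365, a gap of 0.52. The mean of the lines for Mcm4 and Tyms turned sign with the normalization. Groups of 2 arrays are too small for a test of single outlying arrays.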

How the results depend on the processing

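The main limit is 1 residual degree of freedom. Members called for the vector stayed at 0 in every alternative run, while calls over all genes went from 9 to 101 when the filter was set at the 50th percentile, to 68 with no filter at all and likewise to 68 after quantile normalization. They were 28 after cyclic loess, 103 at an adjusted p below 0.10 and 0 without the replicate block, that is without the cell line in the model. Lower calls went from 0 to 10 when the filter was set at the 50th percentile, to 4 with no filter, to 4 after quantile normalization and 10 at an adjusted p below 0.10. The count of 27 members lower in both lines became 25 after quantile normalization and 24 after cyclic loess, and that of members lower by 1.2-fold in both, a fold chosen after seeing the data, went from 11 to 6 after cyclic loess. The members' median difference of -0.28 lay between -0.28 and -0.21 under the normalizations, filters and probe set choices, and was -0.22 without line 167 and -0.33 without line 365. The median of all tested genes stayed within 0.1 of 0.

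Line calls over all genes went from 1528 to 2915 at an adjusted p below 0.10. Members called between the lines went from 2 to 4 after cyclic loess, 4 after quantile normalization, 5 when the filter was set at the 50th percentile, 1 without the intensity trend and 8 at an adjusted p below 0.10. The median line difference of 0.05 was -0.10 on the empty-vector arrays alone. Calls between the lines on 1 vector alone have no residual and were not run. Mean differences near 0 turned sign after quantile normalization and cyclic loess for Orc6 (0.0096 and 0.0215), Mcm4 (0.0187 and 0.0282), Rfc5 (0.0416 and 0.0368) and Tyms (0.0037 and 0.0105), and for Ccne2 after cyclic loess (0.0208). Of 804 recomputed single-gene values, 9 were scored as turned in direction, 8 as gaining a call and 1 as losing one. Values from 1 line alone were scored as unchanged even where the sign turned, as in the 14 members with opposite signs. The filters, the intensity trend and the line term leave the estimate itself as it is, so direction could not turn there. With the 250 bases before the start alone, 8 rather than 13 members held an E2F-type octamer. The cause of these shifts was not tested.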

Other observations

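Histone genes of the replication-coupled clusters, which are transcribed in S phase, were read from the same fit after the replication genes had been seen. Of 23 tested, 9 (39.1%) were lower in both lines with Smarcb1, near the 34.1% of all tested genes, and 6 were higher, with medians of -0.17 in line 167 and 0.14 in line 365. In limma's test 0 passed over all genes, with 2 lower and 1 higher at an unadjusted p below 0.05, where 5.68% and 5.88% of all tested genes were. The 2 lower genes were H2bc3, at -1.08 and -0.39, and H2bc21, at -0.80 and -0.40. H2bc21 was dim, at 4.75 and 3.95 in line 167 and 5.72 and 5.32 in line 365. H4c6 differed by -0.48 and -0.19 (limma unadjusted p = 0.056). The 1 higher gene was the linker histone gene H1f2, at 0.99 and 1.19. H1f2 was at 7.34 with empty vector and 8.33 with Smarcb1 in line 167, and at 6.88 and 8.07 in line 365, with limma adjusted p = 0.14. H3c15 was level in line 167 and higher by 1.58 in line 365. Copies of these genes are nearly identical, so their probe sets may share signal.

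The span of Mcm7 in the RefSeq gene table holds 3 microRNA genes with probe sets of their own, and the mature forms of 2 of them share a seed. Capitals mark the seed, bases 2 to 8, in sequences from RefSeq (GRCm38.p6).
mmu-miR-106b-5p: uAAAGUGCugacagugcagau
mmu-miR-93-5p: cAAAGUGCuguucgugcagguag
mmu-miR-25-3p: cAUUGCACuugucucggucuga
Mcm7 itself differed by -0.42 in line 167 and 0.03 in line 365 with Smarcb1. The Mir106b probe set differed by -0.29 and 0.06, that of Mir93 by 0.37 and 0.24, and that of Mir25 by 0.11 and 0.30, with limma adjusted p of 0.825, 0.563 and 0.726. The Mir106b and Mir93 signals lay between 4.50 and 5.69 on all arrays. Such probe sets cannot tell the mature microRNA from its hairpin or from the host transcript.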
